A study of Mus musculus with 6 samples.

Results

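The 33 genes described here encode the enzymes that build cholesterol and fatty acids and the proteins that switch those enzymes on. They were chosen by name, not by a rule on their values, from a table of 25302 genes, though earlier results of these data were known. The table comes from bulk RNA sequencing of biliary epithelial cells, the lining of the bile ducts, taken from mouse liver, and all 33 genes were found in it once each. The 3 Control samples were homozygous for a floxed allele of Sox9 (Sox9fl/fl), which encodes a transcription factor of the bile duct. The 3 Sox9cKO samples had the same floxed alleles and a heterozygous albumin-promoter Cre transgene (Sox9fl/fl:AlbCre+/-). The albumin promoter is active in hepatocytes and in the liver precursors from which biliary cells arise, so deletion is not limited to the cells sampled. The floxed alleles are thus shared by both groups, and the Control genotype has no Cre, so an effect of the Cre transgene itself cannot be told apart from the loss of Sox9. The labels give neither the age nor the sex of the mice, nor how the cells were isolated. Nor do they say that the samples of a group came from separate animals, so the p-values measure the spread between these samples, which may be technical.

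Cholesterol is made from acetyl-CoA through mevalonate, the isoprenoid diphosphates, squalene and lanosterol. Fatty acids are made from the same acetyl-CoA through malonyl-CoA, and are then lengthened by elongases and given double bonds by desaturases. Both branches are driven by the SREBP transcription factors, which are held in the endoplasmic reticulum by Scap and the Insig proteins when sterols are plentiful and are released for cleavage when sterols are scarce. In the liver these pathways are best known from hepatocytes, while the biliary epithelium lines the ducts that carry the cholesterol and bile acids secreted by hepatocytes.

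Between 11883496 and 16191990 reads were assigned to genes in each sample. Values are normalized counts, in which the reads of each sample were scaled by a single factor. Sox9 itself ran from 6043 to 6293 in Control and from 3165 to 3363 in Sox9cKO, so its counts were reduced to 53.2% of the Control mean. Whether the remaining reads came from the floxed part of the gene cannot be told from counts per gene. Among 17153 tested genes, 2.97% had an adjusted p under 0.05 (limma, Benjamini-Hochberg) and are named called below. The biliary label was checked against 14 markers, all of which were detected in every sample, with Krt19 between 11480 and 26648 and Epcam between 5501 and 8249. Besides Sox9, Krt7 was called among them and was higher in Sox9cKO (log2 fold change 1.0, limma, adjusted p 0.0408). Hepatocyte markers were also present, and some of them differed between the groups. The sum of 16 of them was between 25344 and 39226 in Control and between 49847 and 81452 in Sox9cKO. Apob alone had a mean of 2712 in Control and 22111 in Sox9cKO. Of the 16, 6 were called higher, against 2.03% of all tested genes, led by Fgb, Serpina1a and Apob. The log2 fold change was above 0 for 13 and below 0 for 3, Ttr, Cyp3a11 and Asgr1. Asgr1 was lower in every Sox9cKO sample than in any Control sample. No hepatocyte marker was at 0 in any sample. The sum of 10 endothelial markers varied mainly between replicates, from 1620 to 37544 in Control and from 5991 to 38294 in Sox9cKO, and none of them was called or had an unadjusted p under 0.05 (limma; 0 called by edgeR and DESeq2 too). The sum of 8 leukocyte markers lay between 1922 and 2538 in Control and between 2863 and 4593 in Sox9cKO. Of the 7 tested, 1 was called, Csf1r, which was higher, against 2.03% of all tested genes called higher. The log2 fold change was below 0 for 5 of the 7. Csf1r had a mean of 761 in Control and 1450 in Sox9cKO, and Cd74 reached 2946 in Sox9cKO replicate 2. Ptprc and Cd68 were lower in every Sox9cKO sample than in any Control sample, as were 10.8% of all tested genes. In such bulk samples, fewer cells of a type and less RNA per cell cannot be told apart. The part of these cell types in the results below was not tested.

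The question put to the genes was whether lipid synthesis transcripts differ between biliary cells of the 2 genotypes. None of the 33 genes was called (limma, adjusted p between 0.0535 and 0.998), against 2.97% of all tested genes. All 33 passed the filter on low values. Of the fitted log2 fold changes 12 were above 0 and 21 below, with a median of -0.059 against 0.036 for all tested genes. An unadjusted p under 0.05 was found for 7 of the 33, against 17.8% of all tested genes, and the groups did not overlap for 6 of the 33, 3 higher and 3 lower in Sox9cKO, against 24.2% of all tested genes (13.4% higher and 10.8% lower). The sample titles number the samples and state no pairing. Across the tested genes, deviations of same-numbered samples from their group means correlated at 0.21, 0.47 and 0.54 for replicates 1, 2 and 3. With the replicate number fitted as a block, 3 of the 33 were called by limma, against 8.05% of all tested genes. Scd1 was higher, where 5.06% of all tested genes were called higher, and Stard4 and Fads2 were lower, where 2.99% were called lower. By count tests on the recovered reads, edgeR called none (5 at an unadjusted p under 0.05), against 2.86% of all tested genes. DESeq2 called 2, Scd1 and Stard4, against 7.08%, and edgeR with the block called the same 3 genes as limma with it, against 6.76%.

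The 95% intervals describe how closely the differences between these samples were estimated. They are given for each gene without adjustment over the 33. They rest on a spread between samples that may be technical, so they do not bound a difference between the genotypes. For 28 of the 33 the 95% interval of the log2 fold change lay inside -1 to 1, short of a doubling or a halving, and for 9 it lay inside -0.5 to 0.5. The intervals of Scd1, Scd2, Elovl6, Fads2 and Stard4 reached beyond -1 or 1. The half-width of the intervals ran from 0.27 to 0.66, with a median of 0.44.

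**Figure D1:**
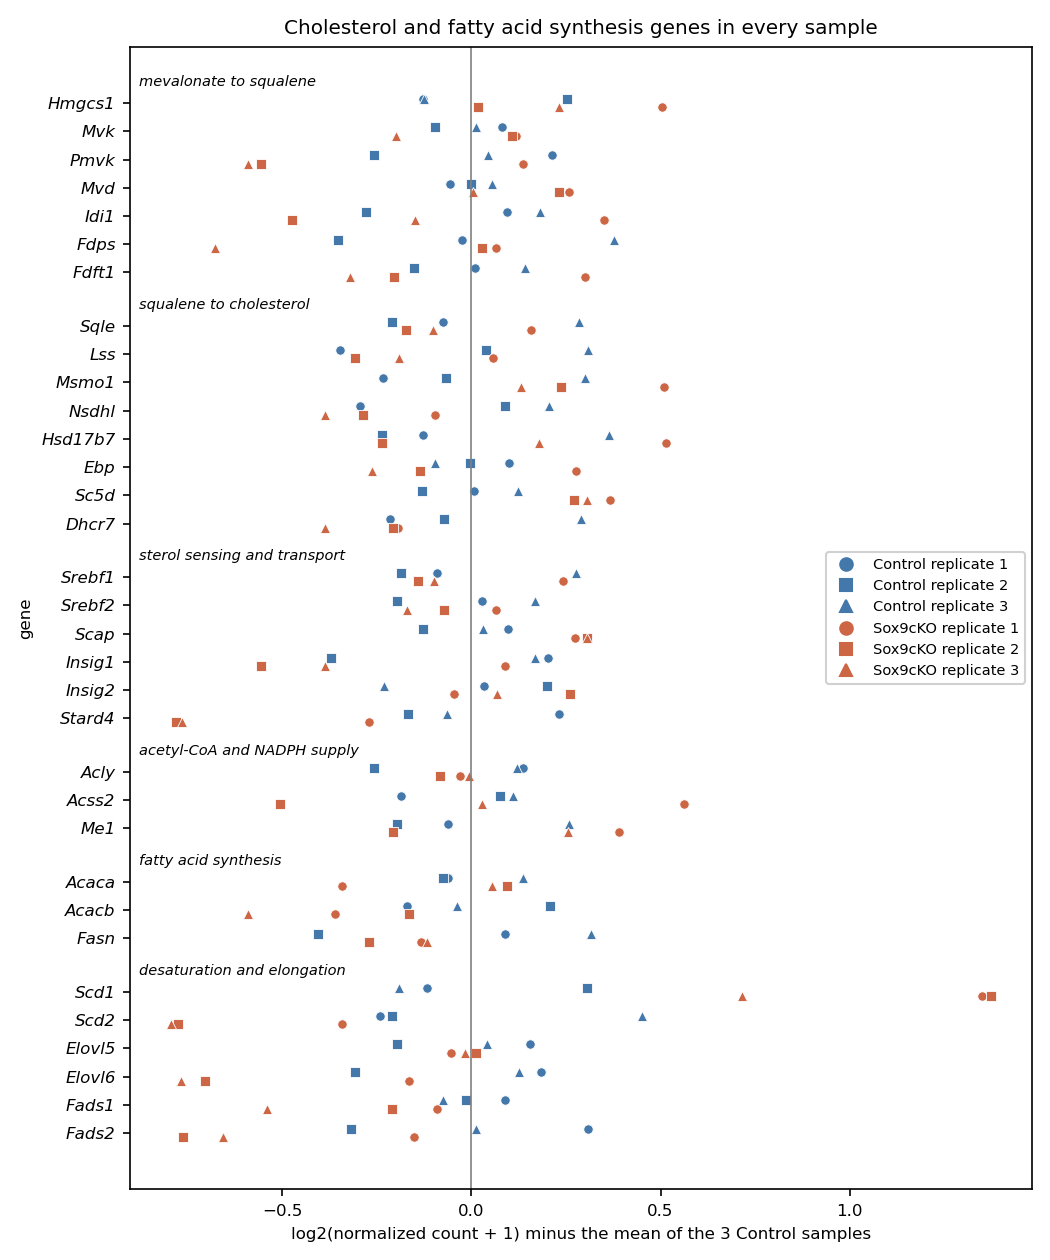
Values of the 33 genes in each of the 6 samples, as log2(normalized count + 1) minus the mean of the 3 Control samples, ordered by step of the pathway. Blue marks are Control and orange marks Sox9cKO, with the shape giving the replicate number; the orange marks of Scd1 lie to the right of all its blue marks, those of Stard4 and Scd2 lie to the left, and most other genes overlap.

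The 7 genes from acetyl-CoA to squalene showed no called difference, and the groups overlapped for each of them. Hmgcs1, the cytosolic HMG-CoA synthase, had normalized counts of 2905, 3783 and 2909 in Control and 4505, 3211 and 3726 in Sox9cKO, here and below in the order of the replicate numbers. A Control sample lay inside the Sox9cKO range, and the log2 fold change was 0.25 ± 0.17 (SE, limma, adjusted p 0.499). The largest difference of this step was that of Pmvk, the phosphomevalonate kinase, at -0.34 ± 0.25 (SE, limma, adjusted p 0.542). Its values were 210.1, 151 and 187 in Control and 199, 123 and 120.0 in Sox9cKO, lower in the Sox9cKO sample of each numbered pair while the groups overlapped. The mevalonate kinase gene Mvk had nearly equal means, 83.4 ± 5.18 in Control and 84.3 ± 10.2 in Sox9cKO (SD, n = 3), with a 95% interval of -0.44 to 0.46 on the log2 scale. The remaining 4 genes are Mvd, the mevalonate diphosphate decarboxylase, Idi1, the isopentenyl diphosphate isomerase, Fdps, which makes farnesyl diphosphate, and Fdft1, the squalene synthase. Their log2 fold changes lay between -0.19 and 0.16. Mvk, the gene with the lowest level of the 7, had between 64 and 105 reads in a sample.

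Promoter sequences from RefSeq (GRCm38.p6, 250 bases before to 50 after a gene's start) were matched by symbol for 26 of the 33 genes, with 35 start sites, and were read for the elements that SREBP and its usual partners bind. Fads1, Fdft1, Fdps, Scd1, Scd2, Sqle and Stard4 had no match, so their promoters were not searched. The sterol regulatory element was searched as TCACNCCAC on both strands. It was found at 1 of the 35 start sites, that of Hmgcs1, and in 1.24% of all 32851 promoters. A looser form, TCACNCNAC, which includes the first, was found at 2 of the 35, Hmgcs1 and Nsdhl, and in 2.70% of all promoters. Other forms of the element were not searched, so a promoter without these strings may still hold one. The NF-Y box CCAAT was in 65.7% of the 35 and 37.4% of all promoters, the GC box GGGCGG in 68.6% and 35.7%, and the E-box CACGTG in 20.0% and 7.15%, each on either strand. The 250 bases before the start are shown for the promoters that held the sterol element, and for Fads2, the gene with a call under the block that the table holds. Capitals mark the sterol element in Hmgcs1 (chr13:119690101-119690350, plus strand), its looser form in Nsdhl (chrX:72918271-72918520, plus strand) and the GC box in Fads2 (chr19:10101504-10101753, minus strand).
Hmgcs1: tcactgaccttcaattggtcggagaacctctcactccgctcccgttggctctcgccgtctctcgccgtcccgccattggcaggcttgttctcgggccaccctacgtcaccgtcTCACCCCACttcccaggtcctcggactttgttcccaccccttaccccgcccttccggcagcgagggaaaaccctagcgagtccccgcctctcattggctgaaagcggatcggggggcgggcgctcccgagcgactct
Nsdhl: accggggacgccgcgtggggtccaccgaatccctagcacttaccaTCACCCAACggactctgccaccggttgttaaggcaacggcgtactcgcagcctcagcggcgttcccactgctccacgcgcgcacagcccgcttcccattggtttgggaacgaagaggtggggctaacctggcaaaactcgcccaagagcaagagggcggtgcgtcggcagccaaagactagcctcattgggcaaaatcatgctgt
Fads2: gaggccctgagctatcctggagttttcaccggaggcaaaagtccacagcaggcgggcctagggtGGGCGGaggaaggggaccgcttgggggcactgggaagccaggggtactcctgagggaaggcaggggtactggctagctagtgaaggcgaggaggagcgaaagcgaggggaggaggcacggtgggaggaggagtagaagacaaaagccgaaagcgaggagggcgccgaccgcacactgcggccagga
The element in Hmgcs1 began 137 bases and that in Nsdhl 205 bases before the start. A match of letters is a description of the sequence and no evidence of binding in these cells.

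From squalene to cholesterol 8 genes were measured and none was called. Sc5d, a sterol desaturase of the late pathway, was the gene of this step with the largest difference. It had 867, 788 and 940.1 normalized counts in Control and 1113, 1041 and 1066 in Sox9cKO, and every Sox9cKO sample lay above every Control sample. The log2 fold change of 0.31 ± 0.11 (SE) did not pass the threshold (limma, adjusted p 0.211, with the block 0.119). Msmo1, the methylsterol monooxygenase, had a similar value of 0.29, but its groups overlapped. Nsdhl, a sterol dehydrogenase that acts with Msmo1, differed by -0.26 and Dhcr7, the reductase that yields cholesterol, by -0.26, both with overlapping groups. Sqle, the squalene epoxidase and a rate-limiting step, had 1321, 1201 and 1694 in Control and 1550.0, 1232 and 1295 in Sox9cKO. Its log2 fold change was -0.04 with a 95% interval of -0.42 to 0.34. Lss, the lanosterol synthase, Hsd17b7, a ketosteroid reductase, and Ebp, the sterol isomerase, had log2 fold changes of -0.15, 0.15 and -0.04.

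The cholesterol genes differed more between samples of a group than between the groups. Averaged over the 15 genes from Hmgcs1 to Dhcr7, and given relative to each gene's mean over the 6 samples, the log2 levels were -0.058, -0.089 and 0.17 in Control and 0.23, -0.10 and -0.15 in Sox9cKO. The group means of this average were 0.0087 and -0.0087. Sox9cKO replicate 1 had the highest value of the 6 samples for 9 of the 15 genes and Control replicate 3 for 5, while Control replicate 2 and Sox9cKO replicates 2 and 3 had the highest value for none of the 15.

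Of the regulators of the pathway, Srebf2, Srebf1 and Insig2 were nearly level between the groups, while Scap and Insig1 differed more. Srebf2, whose protein drives the cholesterol genes, had 4439.9, 3793 and 4888 normalized counts in Control and 4548, 4140.2 and 3866 in Sox9cKO. All 3 Sox9cKO samples lay inside the Control range, and the log2 fold change was -0.06 with a 95% interval of -0.37 to 0.25 (limma, adjusted p 0.863). Srebf1, whose protein drives mainly the fatty acid genes, had 1249.9, 1171 and 1612 in Control and 1574, 1208 and 1244 in Sox9cKO. The means were 1344 ± 235 and 1342 ± 202 (SD, n = 3), and the log2 fold change had an interval of -0.39 to 0.39. Its sign was below 0 under quantile normalization, edgeR and DESeq2. Counts per gene do not separate the Srebf1 transcripts that start at different promoters, nor do they show how much SREBP protein was cleaved.

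Scap, the sterol sensor that escorts SREBP to the Golgi, had 630.4, 539 and 603 in Control and 713, 729 and 729 in Sox9cKO. Each Sox9cKO sample was above each Control sample, by a log2 fold change of 0.30 ± 0.12 (SE) that did not pass the threshold (limma, adjusted p 0.241, or 0.156 with the block). Insig1, the retention protein that is itself induced by SREBP, had 1548, 1040.4 and 1513 in Control and 1433, 916 and 1029 in Sox9cKO. It was lower in the Sox9cKO sample of every numbered pair, with a log2 fold change of -0.28 ± 0.22 (SE, limma, adjusted p 0.569) and overlapping groups. Its paralog Insig2, which responds less to SREBP, had 256, 288 and 213 in Control and 243, 301 and 263 in Sox9cKO, and differed by 0.09 on the log2 scale (limma, adjusted p 0.824), and by -0.026 under quantile normalization.

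Stard4, which encodes a soluble carrier that moves sterol between membranes and is a known SREBP target, stood apart from the other genes of this step. It had 1515, 1149 and 1234 normalized counts in Control and 1069, 750.4 and 759.6 in Sox9cKO, so that every Sox9cKO sample was below every Control sample. The mean was 1299 ± 191 in Control and 859.5 ± 181 in Sox9cKO (SD, n = 3), or 66.2% of the Control mean. Without the block the log2 fold change of -0.61 ± 0.18 (SE) was not called (limma, adjusted p 0.142). With the block it was (limma, adjusted p 0.0188, 95% interval -0.85 to -0.36). The differences within the numbered pairs were -0.50, -0.61 and -0.70. DESeq2 and edgeR with the block also called it, and the adjusted p over all alternatives lay between 0.0179 and 0.374.

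**Figure D2:**
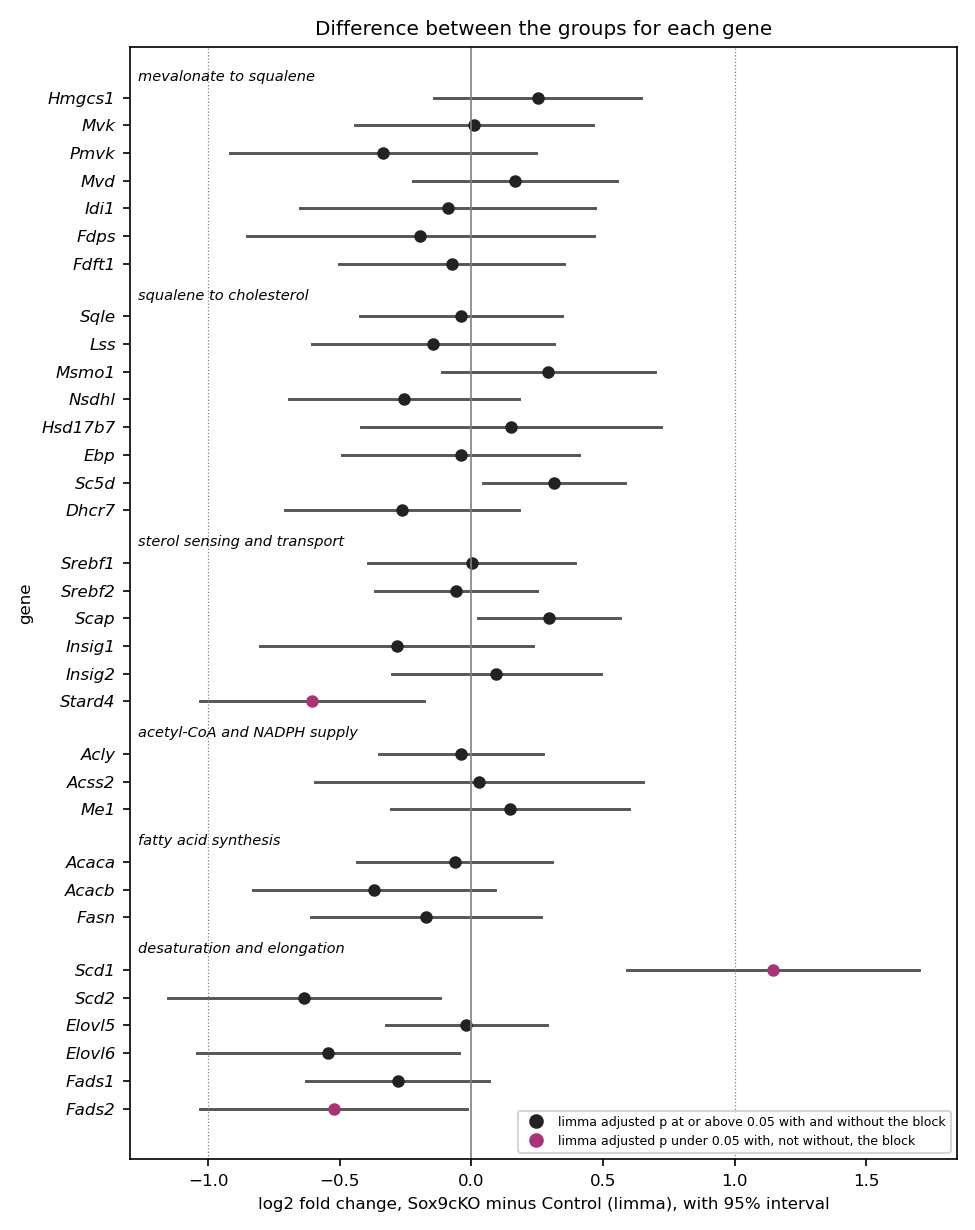
Fitted log2 fold change of each gene, Sox9cKO minus Control (limma without the block), with its 95% interval as a bar. Dotted lines mark -1 and 1; Scd1, Stard4 and Fads2, in purple, have a limma adjusted p under 0.05 with the replicate block and not without it, and 28 of the 33 bars lie between the dotted lines.

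The genes that supply acetyl-CoA and NADPH, and those that build palmitate, did not differ beyond the spread between replicates. Acly, which splits citrate into the acetyl-CoA used for both pathways, had means of 3333 ± 488 in Control and 3217 ± 87.2 in Sox9cKO (SD, n = 3). Acss2, which makes acetyl-CoA from acetate, ranged from 239 to 501 within Sox9cKO alone, wider than its range of 298 to 366 in Control. Me1, the cytosolic malic enzyme that yields NADPH, had the largest difference of these 3, 0.15 on the log2 scale (limma, adjusted p 0.752). Fasn, the fatty acid synthase, had 4191, 2977 and 4910.3 in Control and 3598, 3269 and 3634 in Sox9cKO. The Sox9cKO values lay within the Control range, and the log2 fold change was -0.17 with a 95% interval of -0.61 to 0.26. Of the acetyl-CoA carboxylases, the cytosolic form Acaca differed by -0.06. The mitochondrial form Acacb, whose product restrains fatty acid oxidation, had 126, 164 and 138 in Control and 110.4, 127 and 94.0 in Sox9cKO. That was the largest difference of its step, at -0.37 ± 0.20 (SE, limma, adjusted p 0.382), with overlapping groups.

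Among the desaturases and elongases, Scd1 and Scd2 had the largest absolute log2 fold changes of the 33 genes, ahead of Stard4. Scd1 encodes a stearoyl-CoA desaturase, the enzyme that turns saturated into monounsaturated fatty acids, and is the form best known from adult liver. It had 129, 173 and 122 normalized counts in Control and 357, 363 and 229.8 in Sox9cKO, so that the lowest Sox9cKO sample was above the highest Control sample. The means were 141 ± 27.5 and 317 ± 75.2 (SD, n = 3), a ratio of 2.24. The log2 fold change of 1.15 ± 0.24 (SE) lay just outside the threshold without the block (limma, adjusted p 0.0535). It passed with the block (limma, adjusted p 0.0108, 95% interval 0.75 to 1.54), with DESeq2 (adjusted p 0.00114), with edgeR and the block (0.0151) and in the limma fit without Sox9cKO replicate 3 (adjusted p 0.0402). Over the other fits that left out 1 sample it was not called, and its adjusted p over all alternatives lay between 0.00114 and 0.201. Of the 16 hepatocyte markers given above, 6 were called higher in the same samples, and their part in the Scd1 values was not tested.

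Scd2 encodes a second desaturase of the same activity, which is known for its high level in the brain and in fetal liver. It had 2351, 2404 and 3797 in Control and 2194, 1623 and 1603 in Sox9cKO, and every Sox9cKO sample was below every Control sample. The log2 fold change was -0.64 ± 0.22 (SE), which did not pass the threshold without the block (limma, adjusted p 0.193) or with it (0.108). Within the numbered pairs the difference ran from -0.10 to -1.24. Scd2 was the more abundant form in every sample. Per length of exon sequence, the Scd2 level was 16.4, 12.5 and 27.8 times that of Scd1 in Control and 5.50, 4.0 and 6.25 times in Sox9cKO, with no overlap. This ratio was computed after the values of both genes had been seen and has no test. In RefSeq's gene order 1 protein-coding gene lies between Scd1 and Scd2. Of the 50-base stretches in the longest GENCODE transcript of Scd1, 4.66% also occur in a transcript of another gene, and of Scd2 4.01%, with 2.68% of those of Scd2 found in Scd1. How reads from such stretches were assigned is not given in the sources used here, and their part in the Scd1 level was not tested.

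**Figure D3:**
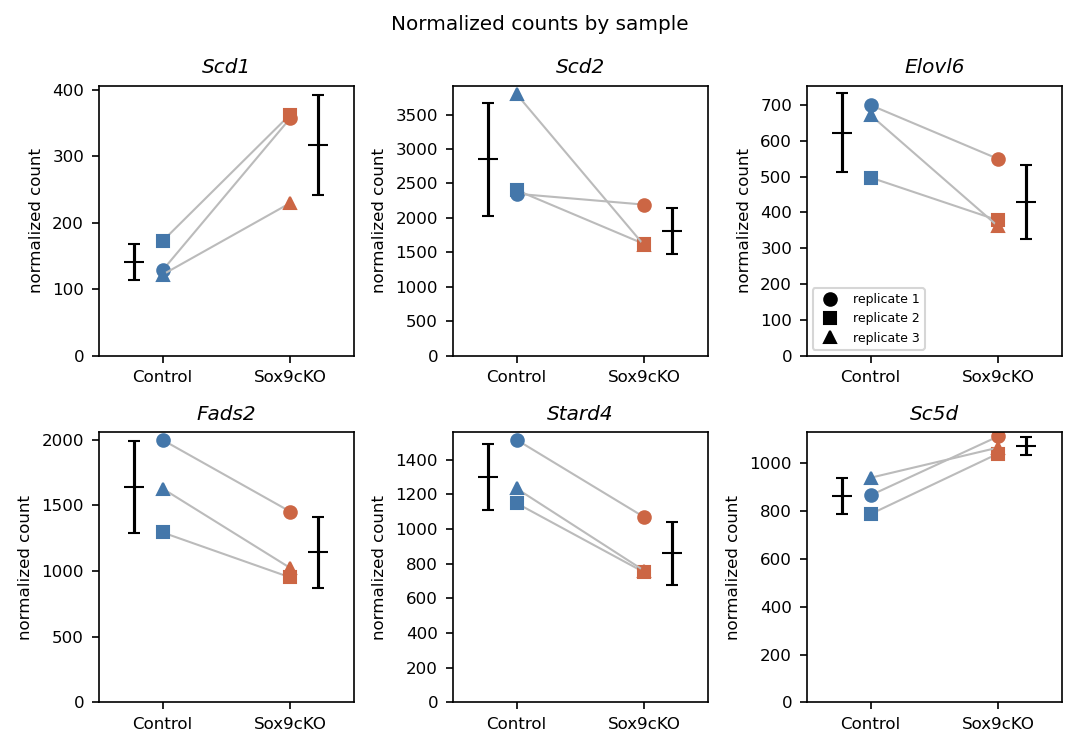
Normalized counts of Scd1, Scd2, Elovl6, Fads2, Stard4 and Sc5d in the 3 Control and 3 Sox9cKO samples, with lines joining samples of the same replicate number and bars giving the mean and SD beside each group. Scd1 ran from 122 to 173 in Control and from 229.8 to 363 in Sox9cKO, while Scd2, Elovl6, Fads2 and Stard4 were lower in the Sox9cKO sample of each pair.

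Fads2 and Fads1, which lie next to each other in the genome, encode the desaturases that act in turn on polyunsaturated fatty acids. Fads2 had 1998, 1294 and 1628 in Control and 1453, 952 and 1023 in Sox9cKO. Sox9cKO replicate 1 lay above Control replicate 2, so the groups overlapped, but the differences within the numbered pairs were -0.46, -0.44 and -0.67. The log2 fold change of -0.52 ± 0.22 (SE) was not called without the block (limma, adjusted p 0.266) and was called with it (0.0304, 95% interval -0.77 to -0.28), as it was by edgeR with the block. Over all alternatives its adjusted p lay between 0.0271 and 0.562. Fads1 had 803, 748 and 717 in Control and 708, 653 and 518 in Sox9cKO, without overlap, and a log2 fold change of -0.28 ± 0.15 (SE, limma, adjusted p 0.382, or 0.184 with the block).

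Elovl6, which lengthens palmitate to stearate, had 699, 497 and 672 in Control and 549, 378 and 361 in Sox9cKO. It was lower in each numbered pair, by a log2 fold change of -0.55 ± 0.21 (SE) that passed neither without the block (limma, adjusted p 0.239) nor with it (0.0696). Elovl5, an elongase of polyunsaturated fatty acids, was level, with means of 649.9 ± 78.8 in Control and 638 ± 14.7 in Sox9cKO (SD, n = 3) and a 95% interval of -0.32 to 0.29. Of the 6 desaturases and elongases, 5 had a log2 fold change below 0, against 7860 of the 17153 tested genes. Elovl5, at -0.02, was among these 5. The median of the 6, with Scd1 included, was -0.40, and none of them was called by limma without the block.

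Compared per kilobase of exon sequence, the 33 genes spanned 46.9-fold in Control. Hmgcs1 was highest, with 696 normalized counts per kb in Control and 830.2 in Sox9cKO, followed in both groups by Acly (631 and 609) and Srebf2 (609 and 582). Acacb was lowest, with 14.8 in Control and 11.5 in Sox9cKO. Neighbours in the Control order mostly could not be separated, since their Control ranges overlapped for all but 4 of the 32 neighbouring pairs. The 4 clear steps followed Me1, Stard4, Fads1 and Dhcr7. The largest shift of place between the groups was that of Scd1, from 31 to 25. The exon lengths are those of GENCODE M21, and levels of genes that share sequence with other genes are uncertain. Sharing was counted against any other gene's transcript on either strand, so it is not limited to copies of the gene. For Fdps 86.4% and for Acaca 52.6% of the 50-base stretches of the longest transcript also occur in another gene's transcript, and the share was at least 10% for 7 of the 33 genes.

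**Figure D4:**
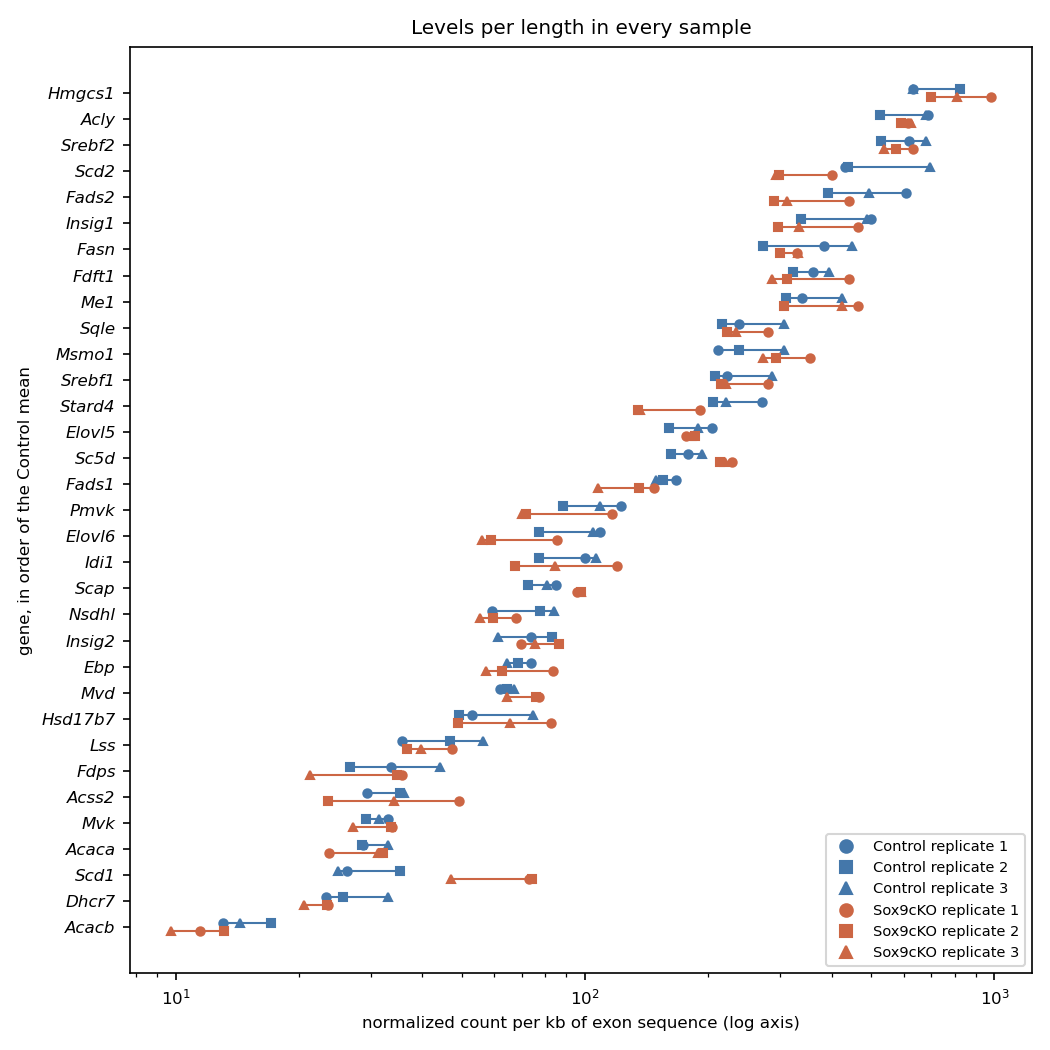
Normalized counts per kilobase of exon sequence for the 33 genes on a log axis, ordered by the Control mean, with a line spanning the 3 samples of each group. The order runs from Hmgcs1, at 696 per kb in Control, to Acacb, at 14.8, and Scd1 is the gene whose groups stand furthest apart.

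Genes of the same pathways outside the 33 were taken from 4 lists. Of 12 other cholesterol synthesis genes, which include Cyp51, the lanosterol demethylase, none was called (limma, adjusted p at least 0.302, 0 at an unadjusted p under 0.05), nor was any by edgeR or DESeq2. Their median log2 fold change was 0.028. Of 13 genes of sterol sensing and SREBP processing limma and edgeR called none (limma, 1 at an unadjusted p under 0.05) and the median was 0.21. With the block, and by DESeq2 without it, Mlxipl, which encodes the carbohydrate-responsive factor ChREBP, was called higher (log2 fold change 0.59, limma, adjusted p 0.0269, or 0.0787 without the block).

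Sterol storage, trafficking and efflux had 16 listed genes, of which 13 could be tested. By limma and edgeR none of the 13 was called (limma, 5 at an unadjusted p under 0.05, against 17.8% of all tested genes), while DESeq2 called 1, Lipa. Of the 13, 12 had a log2 fold change above 0, against 54.2% of all tested genes, and the median was 0.64 against 0.036 for all tested genes. With the block limma called 3 higher, against 5.06% of all tested genes, namely Lipa, the lysosomal acid lipase (log2 fold change 0.82), Npc1, the lysosomal cholesterol exporter (0.64), and Abca1, the cholesterol efflux pump (0.96). Their limma adjusted p-values were 0.0262, 0.0289 and 0.0463 with the block and 0.0502, 0.162 and 0.155 without it. By edgeR with the block, Lipa and Npc1 were called but Abca1 was not (adjusted p 0.0689). Without the block limma called Lipa with a pseudocount of 5, a minimum mean of 50 or TMM factors (adjusted p 0.0447 to 0.0488), and Abca1 when Control replicate 2 was left out (0.0343). Abca1 varied between Control samples (953, 1539 and 649) in the same order as the endothelial markers, whose sum was 11740, 37544 and 1620 there, but not between Sox9cKO samples (2275, 1826 and 1695, with marker sums of 29673, 38294 and 5991). Abcg1, Mylip and Scarb1, with log2 fold changes of 1.06, 0.74 and 0.44, varied in the order of these marker sums within both groups. So did Soat1, at -0.54. The other tested genes of the list did not follow that order in both groups. The part of endothelial cells in these values was not tested.

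In the list of other fatty acid and triglyceride genes, limma without the block called 2 of 24 tested genes higher and none lower, against 2.03% and 0.939% of all tested genes. Elovl2, an elongase of long polyunsaturated fatty acids, had 47.9, 20.4 and 23.0 normalized counts in Control and 249.7, 310.0 and 370.2 in Sox9cKO. It rose by a log2 fold change of 3.39 ± 0.34 (SE, limma, adjusted p 0.00475), a ratio of means of 10.2, and was called in all 17 alternatives. Lpin2, a phosphatidate phosphatase of triglyceride synthesis, rose from 4619 ± 787 to 9087 ± 1490.2 (SD, n = 3), with a log2 fold change of 0.98 ± 0.17 (SE, limma, adjusted p 0.0300). Its call was lost without the intensity trend (adjusted p 0.0757) and when any single sample but Control replicate 3 was left out, with adjusted p-values from 0.0563 to 0.129. With the block, where 5.06% of all tested genes were called higher, limma called 4 of the 24 higher, adding Dgat2, which completes triglyceride synthesis, and Fabp5, a fatty acid carrier (limma, adjusted p 0.020 and 0.024, or 0.157 and 0.111 without it). DESeq2 without the block called Fabp5 (adjusted p 0.0158) and not Dgat2 (0.0609). The list had 18 genes above 0 and 6 below, with a median of 0.30. Of the 16 hepatocyte markers, 6 were called higher in the same Sox9cKO samples, and their part in these values was not tested.

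**Figure D5:**
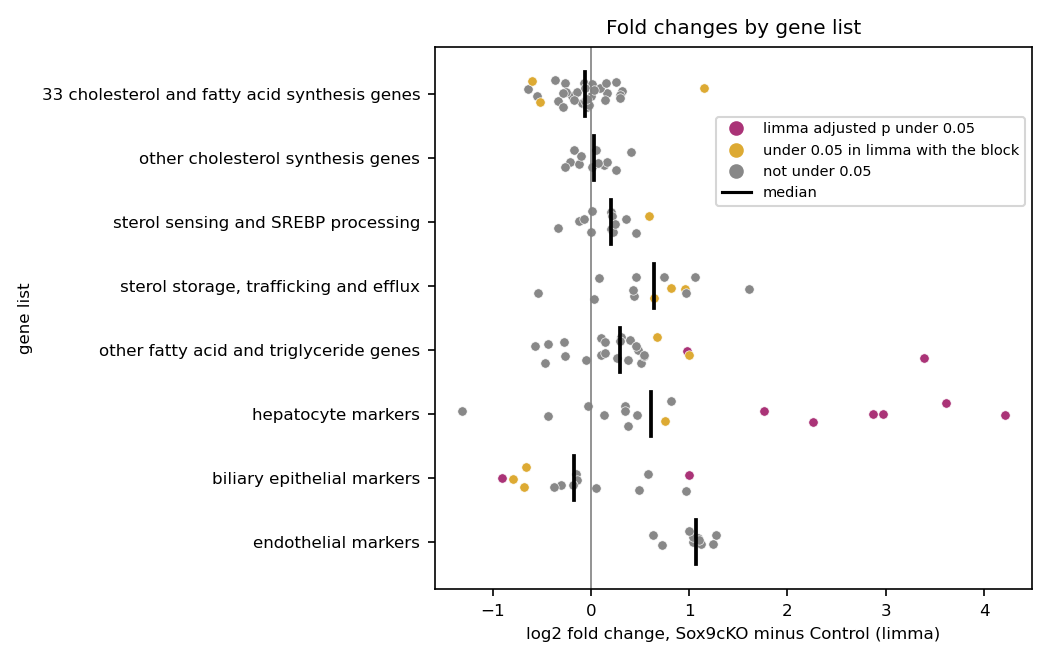
Log2 fold changes (Sox9cKO minus Control, limma) of the tested genes of each list, 1 point per gene with a black bar at the median and points spread vertically for display only. The 33 genes centre at -0.059 and only Scd1 among them exceeds 1, whereas Elovl2, at 3.39, is the highest gene of the 4 other lipid lists and 6 hepatocyte markers are called higher. The endothelial markers centre at 1.07 with none called.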

How the data were processed

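Total RNA of 3 Control and 3 Sox9cKO samples was ribosome-depleted and made into stranded libraries with molecular identifiers, per the labels' protocols. The authors deposited a signal per gene, namely counts divided by a size factor for each sample. DESeq2 1.36.0 and GRCm39 are named in the submitters' processing notes, while the aligner, counting program and use of the identifiers are not given in the sources used here. Dividing each sample's values by what 1 read is worth there gave back whole reads (100% of values, within 0.001 reads). Between 11883496 and 16191990 reads per sample set the precision.

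Genes with a mean of at least 10 were tested on log2(value + 1) with limma 3.58.1 in R 4.3.3 (intensity trend, two-sided, Benjamini-Hochberg over all tested genes, threshold 0.05). The pseudocount understates changes of low genes. edgeR 4.0.16 and DESeq2 1.42.0 were run on the recovered reads. Replicate numbers are those of the sample titles. Deviations of same-numbered samples correlated at 0.21, 0.47 and 0.54 across the tested genes, so the replicate number was also fitted as a block. Limma with and without the block, edgeR and DESeq2 were also run on simulated reads. These held no effect of the replicate number, so they cannot judge what the block does here. Replicates of a group differed by more than sampling noise.

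Exon lengths and transcripts came from GENCODE M21 (GRCm38), promoters from RefSeq (GRCm38.p6). Neither is the build of the counts, so coordinates are given for printed promoters only, in GRCm38.p6. The genes, lists and rules were chosen with earlier results of these data known. Named genes are all 33, with values in each sample for those called, with an absolute log2 fold change of at least 1, regulators, or largest in their step, and called genes of other lists. Values of other genes shown were chosen after they were seen. They include genes of other lists that limma called with the block and not without it. They also include Scd2, Elovl6, Fads1, Hmgcs1, Sqle, Fasn, Asgr1, Ttr, Cyp3a11, Abcg1, Mylip, Scarb1, Soat1, Cd74, Ptprc and Cd68.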

Additional observations from a re-analysis of the deposited data

How the results depend on the processing

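The number of called genes was 510, and moved to 1214 with DESeq2 (721 higher, 493 lower), 1381 with the replicate block and 1160 in edgeR with the replicate block. The number called among the 33 genes moved from 0 to 2, 3 and 3 in the same fits, and that among the 4 pathway lists from 2 to 5, 8 and 7, or to 1 without the intensity trend. Over the fits that left out 1 sample, 200 to 389 genes, 0 to 1 of the 33 and 1 to 2 of the lists were called. The lowest count, 200, was without Control replicate 1, and it was 210 without Control replicate 3, 280 without Sox9cKO replicate 3 and 337 without Sox9cKO replicate 2. The 1 call among the 33 was Scd1, without Sox9cKO replicate 3. The cause was not tested.

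The median of the 33 ranged from -0.19 to 0.0019 when 1 sample was left out, above 0 only without Control replicate 3. Quantile normalization moved it to -0.16, and the median of all genes from 0.036 to -0.031. Under quantile normalization the sign changed for Mvk (-0.076), Srebf1 (-0.075), Insig2 (-0.026) and Acss2 (-0.092). With edgeR it changed for Mvk (-0.030) and Srebf1 (-0.049), with DESeq2 for the same genes (-0.022 and -0.041), and in edgeR with the block for Mvk (-0.032), Srebf1 (-0.043) and Acss2 (-0.012). When 1 sample was left out, the range crossed 0 for Sqle (-0.14 to 0.10), Idi1 (-0.31 to 0.10), Fdps (-0.37 to 0.047), Fdft1 (-0.26 to 0.048), Lss (-0.32 to 0.0070), Mvk (-0.047 to 0.11), Srebf1 (-0.12 to 0.14), Srebf2 (-0.16 to 0.025), Insig2 (-0.021 to 0.19), Acaca (-0.14 to 0.075), Acly (-0.17 to 0.028), Elovl5 (-0.12 to 0.058), Acss2 (-0.24 to 0.29), Hsd17b7 (-0.029 to 0.35) and Ebp (-0.20 to 0.070). The other 18 of the 33 kept their sign in all 17 alternatives. Among the 33 and the pathway lists, the replicate block changed no call beyond those of Scd1, Stard4, Fads2, Mlxipl, Lipa, Npc1, Abca1, Dgat2 and Fabp5.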
